A study of Mus musculus with 6 samples.

Results

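Potassium channel subunits were examined in the anterior cingulate cortex (ACC), a frontal cortical region, of C57BL/6 mice at postnatal day 45. The members were all rows of the gene table whose symbol begins with Kcn, apart from the Kcnip genes, which code for calcium-binding partner proteins. There were 71 such rows of 14250 in all, and each carried an Ensembl identifier of a protein-coding gene in GENCODE M21 (mouse build GRCm38). They fell into 19 subfamilies by symbol. All mice had received 1 intraperitoneal injection on postnatal day 14, either LPS (lipopolysaccharide, a bacterial endotoxin that provokes inflammation, 50 µg per kg) or pyrogen-free saline, and were otherwise untreated as far as the labels say. Each group held 3 mice and each library came from the polyadenylated RNA of 1 mouse, taken by hand dissection after cold perfusion. The labels give neither the sex nor the litter of the mice.

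Potassium channels let potassium ions leave or enter the cell and set the resting potential, the shape of the action potential and the firing rate of neurons. Voltage-gated (Kv) channels are tetramers of pore subunits, often with auxiliary subunits attached. Inward rectifiers (Kir) and tandem-pore leak channels act near rest, while calcium- and sodium-activated channels couple firing to ion entry. Astrocytes use inward rectifiers to clear extracellular potassium, mural cells of vessels use them in control of vessel tone, and microglia carry tandem-pore channels of their own.

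The libraries held between 36168687 and 41270737 counts. Member counts averaged 39.8 per library for the lowest member, Kcnq1, and 14493 for the highest. Markers of cortical excitatory neurons were abundant. As CPM, counts scaled to library size with edgeR's TMM factors, the list summed to 7379 to 8443 with saline and 7609 to 8121 with LPS. Striatal markers summed to 179 to 195 and 191 to 199 CPM. CPM is not scaled for transcript length, so the 2 lists are not compared in level. Of 8 striatal markers, 5 were fitted higher in LPS and 3 lower. By edgeR, 2 of the higher ones, Rgs9 and Pde10a, had an unadjusted p under 0.05, with overlapping groups, and 0 passed after adjustment. The vesicular glutamate transporter gene Slc17a7 had 1616 ± 91.9 CPM after saline and 1686 ± 43.8 CPM after LPS (SD, n = 3 each). Of 90 protein-coding Kcn genes of the same rule in GENCODE M21, 19 had no row in the table and are not covered here, among them Kcna10, Kcnh8, Kcnj5, Kcnk5, Kcnk18, Kcnn4 and Kcnv2.

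No potassium channel gene passed the test between LPS and saline mice. By edgeR's quasi-likelihood test, with p-values adjusted over all 14250 rows and a threshold of 0.05, 0 of 71 members were higher and 0 were lower, where 0.0982% of all rows were called higher and 0.189% lower. DESeq2, limma-voom and limma on FPKM also called 0 members. The smallest adjusted p of a member was 0.337 (Kcnk10, edgeR). At an unadjusted edgeR p under 0.05 there were 4 members higher in LPS (5.63%, against 3.63% of all rows) and 3 lower (4.23%, against 3.54%). DESeq2 gave 8 such members in all and limma on FPKM gave 5. The shares over all rows were not counted for these other tests, so their counts are not set against a background.

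The sizes of the differences were also near those of the whole table. The median log2 change (LPS relative to saline) was -0.03 over the members and 0.00 over all rows, and the median size without regard to sign was 0.08 for both. Values were below 0 in 42 members (59.2%, against 49.6% of all rows) and above 0 in 29. In 3 members each LPS library lay above each saline library (4.23%, against 6.84% of all rows), and in 6 each lay below (8.45%, against 6.84%). For 50 of the 71 members the 95% interval of the change lay within 1.5-fold in either direction. The other 21 had wider intervals.

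**Figure D1:**
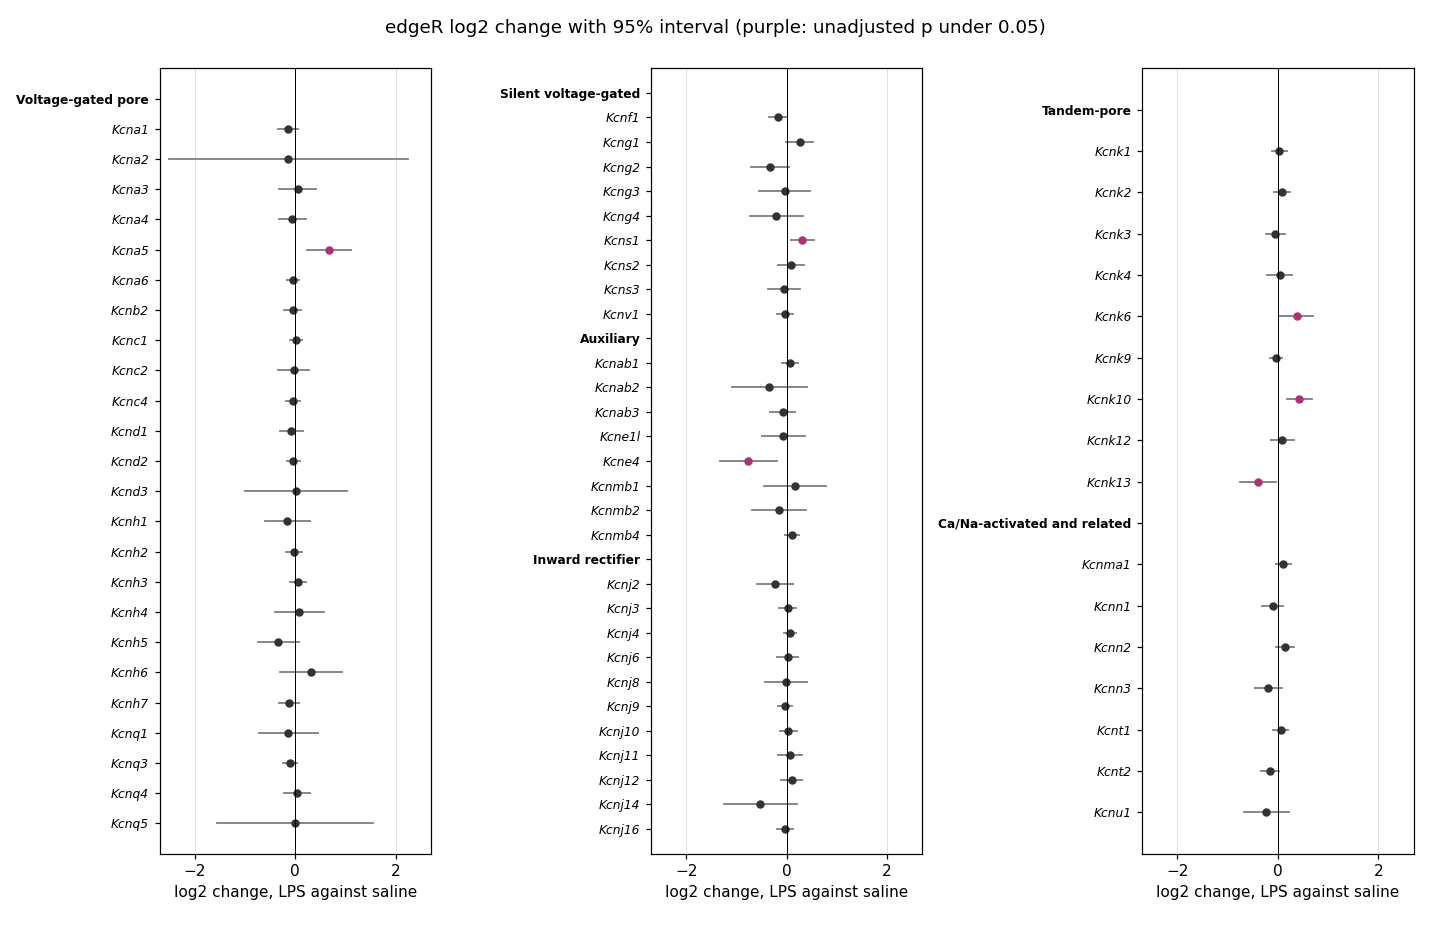
The edgeR log2 change of 68 genes, LPS relative to saline, is drawn as a point with its 95% interval, by channel class. Purple points mark the 6 drawn genes with an unadjusted p under 0.05, none of which passed after adjustment, and the widest intervals belong to Kcna2, Kcnq5 and Kcnd3.

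Levels of different genes were compared in FPKM, a fragment count scaled for transcript length and library size. Saline means ran from 0.318 FPKM for Kcnq1 to 114 FPKM for Kcnab2, with a median of 7.66 FPKM, close to the median of 7.13 FPKM over all rows. There were 28 members above 10 FPKM and 8 below 1 FPKM. The 10 highest members held 50.4% of the summed FPKM of all 71. Among them, in descending order, were Kcnab2, Kcnmb4, Kcnh3, Kcnj4, Kcnj9, Kcnj10, Kcnf1, Kcnk1 and Kcnc4. Saline ranges overlapped between neighbours in this order for Kcnh3 and Kcnj4, Kcnj9 and Kcnj10, and Kcnf1 and Kcnk1. Over the whole order, 58 of 70 neighbouring pairs overlapped, so most adjacent ranks are not distinct. Of the 20 highest members in saline, 19 were also among the 20 highest in LPS.

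**Figure D2:**
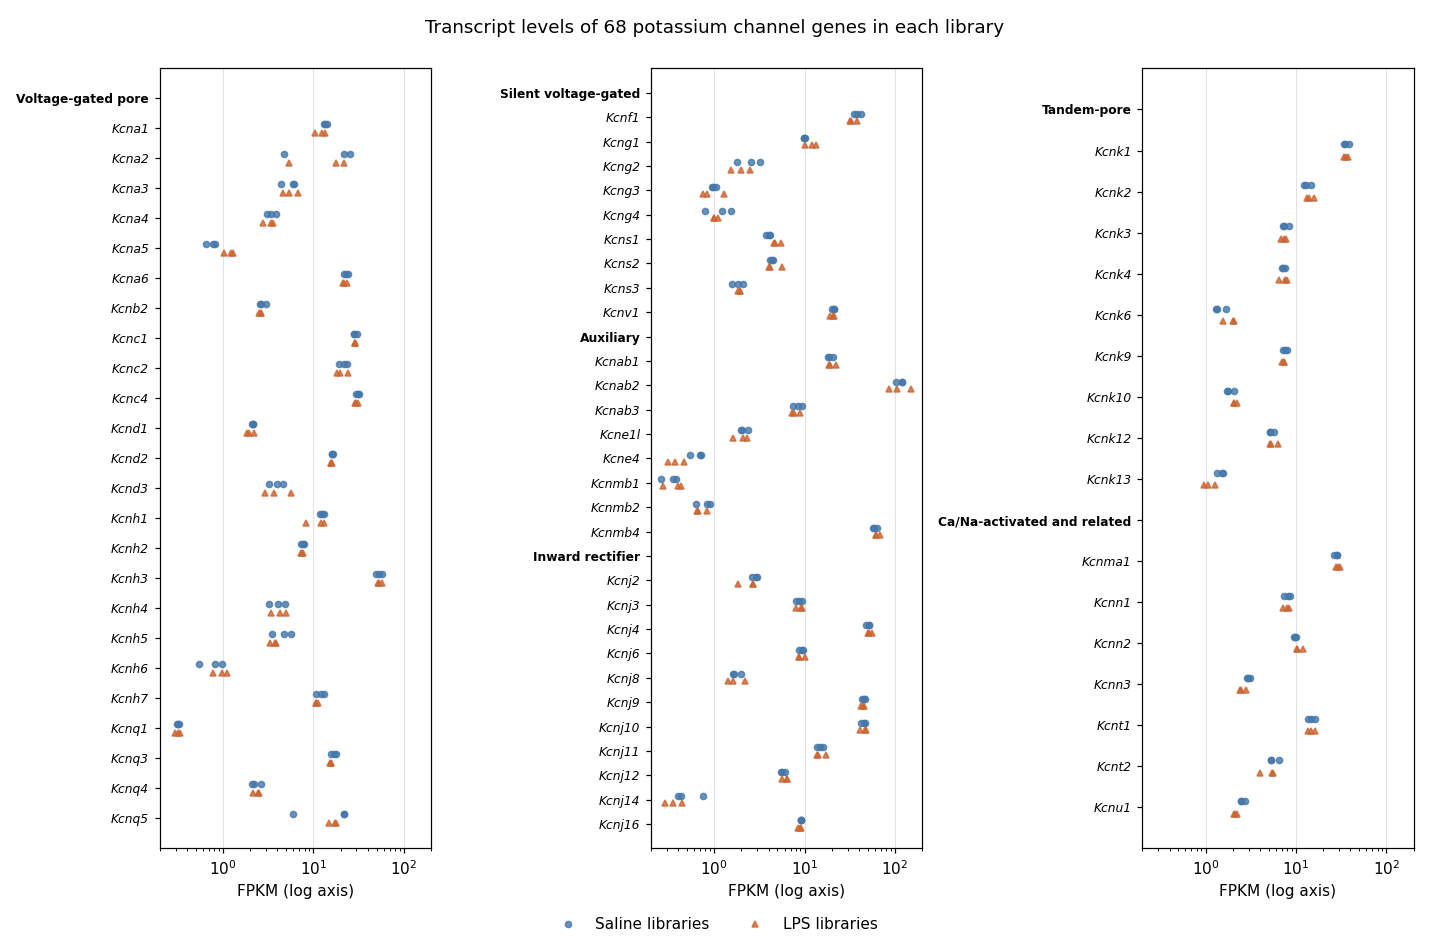
FPKM (log axis) of 68 genes in each library, by channel class, with saline libraries as circles and LPS libraries as triangles. The ranges of triangles and circles overlap in all but 9 genes, Kcnab2 is the highest at 114 FPKM in saline, and single libraries stand apart for Kcna2 and Kcnq5.

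Summed by class, the shares of channel transcripts differed little between the groups. Voltage-gated pore subunits held 36.3% ± 1.51 of the summed FPKM in saline and 35.4% ± 1.17 in LPS libraries (SD, n = 3 each). Auxiliary subunits held 20.6% ± 1.69 and 21.1% ± 2.53, and inward rectifiers 19.3% ± 0.123 and 19.6% ± 0.902. The silent Kv subunits held 8.42% ± 0.226 and 8.21% ± 0.519, and tandem-pore channels 8.22% ± 0.175 and 8.41% ± 0.466. The calcium- or sodium-activated and related group held 7.19% ± 0.172 and 7.31% ± 0.303. The group means of each class differed by less than the larger of the SDs.

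Among the 27 voltage-gated pore subunits, 8 had values above 0 and 19 below, with a median log2 change of -0.05 and 0 called. The Shaker-type gene Kcna5, on chromosome 6 (GRCm38, chr6:126532551-126535412), had 95, 81 and 96 counts in the saline and 160, 169 and 117 in the LPS libraries. Each LPS library was above each saline library. The means were 2.34 ± 0.279 CPM after saline and 3.73 ± 0.491 CPM after LPS (SD, n = 3 each). This is 0.67 on the log2 scale (SE 0.192), with an edgeR adjusted p of 0.406, and without any one library it ran from 0.58 to 0.77. Kcna5 was among the least abundant members, at 0.745 FPKM in saline.

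The genes next to Kcna5 did not share its separation. Kcna1, which codes for a subunit of axonal low-threshold channels and lies 105 kb from Kcna5, had 58.8 ± 2.53 CPM after saline and 53.2 ± 6.80 CPM after LPS (SD, n = 3 each). Kcna6, another subunit of the same kind 61.9 kb beyond Kcna1, had 106 ± 1.29 and 102 ± 4.41 CPM. Their log2 changes were -0.14 (SE 0.0911) and -0.05 (SE 0.0553), and the groups overlapped in both. The difference between these genes and Kcna5 was not tested.

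Fast-delayed rectifiers of the Kcnc (Kv3) subfamily, which allow parvalbumin interneurons to fire at high rates, had values close to 0. Kcnc1 had 181, 189 and 172 CPM in the saline and 183, 186 and 178 CPM in the LPS libraries, with the groups interleaved. Its log2 change was 0.01 with a 95% interval from -0.11 to 0.14. Log2 changes were -0.03 for Kcnc2 (SE 0.131) and -0.05 for Kcnc4 (SE 0.0600). The summed level of 7 genes listed as fast-spiking interneuron markers was 271 to 303 CPM with saline, against 308 to 333 CPM with LPS. Of them 6 were above 0 and 1 below, with 0 called by edgeR and 2 at an unadjusted p under 0.05. Those 2, Erbb4 and Lhx6, were higher in each LPS library (log2 0.20 and 0.25). Gad1 made up the largest part of the sum (156 ± 6.26 CPM after saline and 170 ± 13.7 CPM after LPS, SD, n = 3 each) with overlapping groups. Pvalb was the 1 below 0 (log2 -0.03) and Cox6a2 was at 0.02, both also with overlapping groups. The sum, led by Gad1, is therefore not a measure of fast-spiking cells alone. The part of this list in the Kcnc values was not tested. Sums of the oligodendrocyte, endothelial, thalamus and meninges marker lists overlapped between the groups. The 6 oligodendrocyte precursor markers, like the fast-spiking list, summed higher in each LPS library, at 752 to 780 CPM against 703 to 734 CPM. Of them 4 were above 0 and 2 below, with 0 called by edgeR and 3 at an unadjusted p under 0.05. Over all rows, 7.17% had such a p. Cspg5 made up the largest part of the sum (371 ± 11.6 CPM after saline and 386 ± 14.5 CPM after LPS, SD, n = 3 each) with overlapping groups, Gpr17 was higher in each LPS library (log2 0.21), and Sox10 was lower in each (log2 -0.16). In bulk tissue, a change in the number of cells of a type and a change in their RNA per cell cannot be told apart.

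Kcnd2, the pore subunit of dendritic A-type current, had 91.7 ± 2.12 CPM after saline and 89.3 ± 2.93 CPM after LPS (SD, n = 3 each), with a 95% interval of the log2 change from -0.16 to 0.08. Its groups overlapped in CPM and not in FPKM, where each LPS library was lower. Kcnh3, an ELK-type subunit and the most abundant pore subunit at 53.0 FPKM in saline, had a log2 change of 0.05 (SE 0.0715). Its exons overlap those of Mcrs1 on the opposite strand, so its reads are uncertain, as are those of Kcnh7 (beside Gca) and Kcnk4 (beside Catsperz). Kcnh1, an EAG-type subunit, had 100, 103 and 92.0 CPM after saline and 102, 97.3 and 65.1 CPM after LPS. Only LPS 3 was low, and the log2 change of -0.16 (SE 0.179) became 0.02 without it.

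Kcnq3, a subunit of the M-current, a slow current that limits repetitive firing, had 217 ± 15.2 CPM after saline and 202 ± 3.66 CPM after LPS (SD, n = 3 each), or -0.11 on the log2 scale (SE 0.0630), with an edgeR adjusted p of 0.783. The Kcnq3 groups overlapped in CPM, through Saline 3, and were separate in FPKM, with LPS lower.

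The silent subunits (Kcnf, Kcng, Kcns, Kcnv) form no channel alone and modify other Kv channels. Of 9 measured, 3 had values above 0 and 6 below, with 0 called. Kcns1 (chr2:164163619-164171113) had 12.4, 12.1 and 10.8 CPM in the saline and 16, 13.8 and 14 CPM in the LPS libraries, with no overlap. The log2 change was 0.31 (SE 0.104, edgeR adjusted p = 0.522). Kcnf1, the most abundant silent subunit, had 201 ± 17.0 CPM after saline and 178 ± 15.9 CPM after LPS (SD, n = 3 each; log2 -0.17, SE 0.0828), and Kcng1 had a log2 change of 0.26 (SE 0.117). The groups of both overlapped. Kcns2 was at 0.09 (SE 0.113) and Kcnv1 at -0.03 (SE 0.0698).

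Among 8 auxiliary subunits, Kcne4, a single-span subunit that dampens Kv1 and Kv7 currents (chr1:78816758-78820028), had the largest change below 0 of any member. It had 62, 82 and 76 counts in the saline and 56, 44 and 33 in the LPS libraries. Scaled to CPM, each LPS library lay below each saline library, with 1.89 ± 0.232 CPM after saline and 1.11 ± 0.216 CPM after LPS (SD, n = 3 each). The log2 change was -0.76 (SE 0.254, edgeR adjusted p = 0.522), and it ran from -0.92 to -0.64 without any one library. Kcne4 was also among the lowest members, at 0.654 FPKM in saline. Kcne1l, the other measured Kcne gene, had a log2 change of -0.06 (SE 0.193).

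Kcnmb4, the neuronal beta subunit of the large-conductance calcium-activated (BK) channel, was the second most abundant member. It had 59.7 ± 3.24 FPKM after saline and 64.1 ± 4.14 FPKM after LPS (SD, n = 3 each). The BK pore gene Kcnma1 had 27.9 ± 1.16 and 29.2 ± 1.57 FPKM, and the 2 other measured beta subunits, Kcnmb1 and Kcnmb2, were below 1 FPKM. Log2 changes of counts were 0.11 for both Kcnmb4 (SE 0.0620) and Kcnma1 (SE 0.0673), and neither passed in edgeR.

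Over the whole calcium- or sodium-activated and related group, log2 changes ran from -0.23 to 0.15, with 0 called. Kcnn2, a small-conductance channel that contributes to the after-hyperpolarization of neurons, had 36.2 ± 1.65 CPM after saline and 40.1 ± 3.34 CPM after LPS (SD, n = 3 each; log2 0.15, SE 0.0798). The groups overlapped in CPM and were separate in FPKM. The sodium-activated channel gene Kcnt1 was at 0.05 (SE 0.0695). Its relative Kcnt2 had 22.6, 26.3 and 23.9 CPM in the saline and 22.0, 22.4 and 20.8 CPM in the LPS libraries. The Kcnt2 groups were separate by a narrow margin (log2 -0.16, SE 0.0839, edgeR adjusted p = 0.756), but not in FPKM. Kcnu1, best known from sperm, was separate by a narrow margin in CPM, at 2.44, 3.12 and 2.44 CPM against 2.41, 2.20 and 2.22 CPM (log2 -0.23, SE 0.197). Unlike those of Kcnt2, its groups were also separate in FPKM, at 2.57 ± 0.167 after saline and 2.14 ± 0.0918 after LPS (SD, n = 3 each).

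The 11 inward rectifiers had 6 values above 0, 5 below, 0 separate groups and 0 at an unadjusted p under 0.05. Kcnj10, the main potassium-buffering channel of astrocytes, had 274, 269 and 245 CPM in the saline and 241, 284 and 279 CPM in the LPS libraries. The groups interleaved, and its log2 change was 0.03 with a 95% interval from -0.14 to 0.20. Its astrocytic partner Kcnj16 was at -0.03 (SE 0.0696). Of 10 astrocyte markers, 5 were above 0 and 5 below, with 0 called by edgeR and 0 at an unadjusted p under 0.05. Their summed level, 3420 to 5897 CPM with saline, against 3298 to 6376 CPM with LPS, was led by Slc1a2, which varied from 752 to 3755 CPM between libraries of the same group.

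G-protein-gated inward rectifiers, which carry the slow inhibition downstream of GABA-B and serotonin receptors, also had values near 0. Kcnj9 had 45.2 ± 1.91 FPKM after saline and 44.0 ± 2.16 FPKM after LPS (SD, n = 3 each). Its partners were lower in level, with Kcnj3 at 8.65 ± 0.663 and 8.90 ± 0.695 FPKM and Kcnj6 at 9.16 ± 0.521 and 9.10 ± 0.852 FPKM. Log2 changes of counts were -0.03, 0.02 and 0.02, with 95% intervals from -0.17 to 0.11, -0.15 to 0.19 and -0.19 to 0.23. Kcnj4, a strong rectifier of forebrain neurons, was at 0.07 (SE 0.0570).

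Kcnj8, the pore subunit of the ATP-sensitive channel of pericytes and smooth muscle, had 178, 182 and 208 counts in the saline and 164, 186 and 224 in the LPS libraries. The interval of its log2 change ran from -0.43 to 0.42. Abcc9, which codes for the regulatory subunit of the same channel, was at 0.05 (SE 0.0907). The 10 mural cell markers summed to 440 to 496 CPM with saline, against 466 to 526 CPM with LPS, with overlapping groups. All 10 had values above 0, with 0 called by edgeR and 1 at an unadjusted p under 0.05 (Anpep, log2 0.47), and their part in the Kcnj8 values was not tested.

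Of the 9 tandem-pore channels, 6 had values above 0 and 3 below, with a median log2 change of 0.03 and 0 called. Kcnk10, a mechanically and lipid-gated leak channel of the TREK type (chr12:98429437-98578310), had 8.49, 7.94 and 9.59 CPM in the saline and 11.4, 11.2 and 12.4 CPM in the LPS libraries, without overlap. The log2 change was 0.43 (SE 0.111, edgeR adjusted p = 0.337), and leaving out any one library gave 0.37 to 0.50. In FPKM its groups overlapped, at 1.86 ± 0.195 in saline and 2.12 ± 0.0881 in LPS samples (SD, n = 3 each). The ratio of FPKM to counts for Kcnk10, set relative to Saline 1 and to the median gene, was -15.0%, -9.03% and -14.6% off in the LPS libraries and 4.42% and 1.59% in the other saline libraries. The separation in Kcnk10 was therefore seen in the counts alone.

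Kcnk13, which codes for the resting potassium leak of microglia (chr12:99964499-100062682), had 4.61, 5.05 and 5.20 CPM in the saline and 3.55, 4.37 and 3.31 CPM in the LPS libraries. Each LPS library was below each saline library, and this held in FPKM. The fitted difference was -0.40 on the log2 scale (SE 0.161), with an edgeR adjusted p of 0.658. Kcnk6, a tandem-pore gene also known from macrophages, had the opposite sign, with 6.49 ± 0.898 CPM after saline and 8.42 ± 1.11 CPM after LPS (SD, n = 3 each). Its groups overlapped (log2 0.38, SE 0.148, edgeR adjusted p = 0.642). The 10 microglia markers summed to 401 to 426 CPM with saline, against 410 to 445 CPM with LPS. Of them 6 were above 0 and 4 below, with 0 called by edgeR and 2 at an unadjusted p under 0.05. Those 2, C1qa (log2 -0.17) and Aif1 (log2 -0.47), were lower in each LPS library, as Kcnk13 was. Cx3cr1 was at 5.41 CPM in LPS 1 and at 35.3 and 36.1 CPM in LPS 2 and LPS 3. The part of the 10 markers in the Kcnk13 and Kcnk6 values was not tested.

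The other leak channels had overlapping groups. Kcnk1, at 36.1 ± 2.48 FPKM after saline and 36.2 ± 1.76 FPKM after LPS (SD, n = 3 each), had a log2 change of 0.03. Kcnk9, an acid-sensitive channel that holds cortical neurons near rest, had 98.9, 100 and 104 CPM in the saline and 98.5, 101 and 95.2 CPM in the LPS libraries. Its 95% interval ran from -0.16 to 0.08. Kcnk2, a close relative of Kcnk10, was at 0.08 (SE 0.0741).

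**Figure D3:**
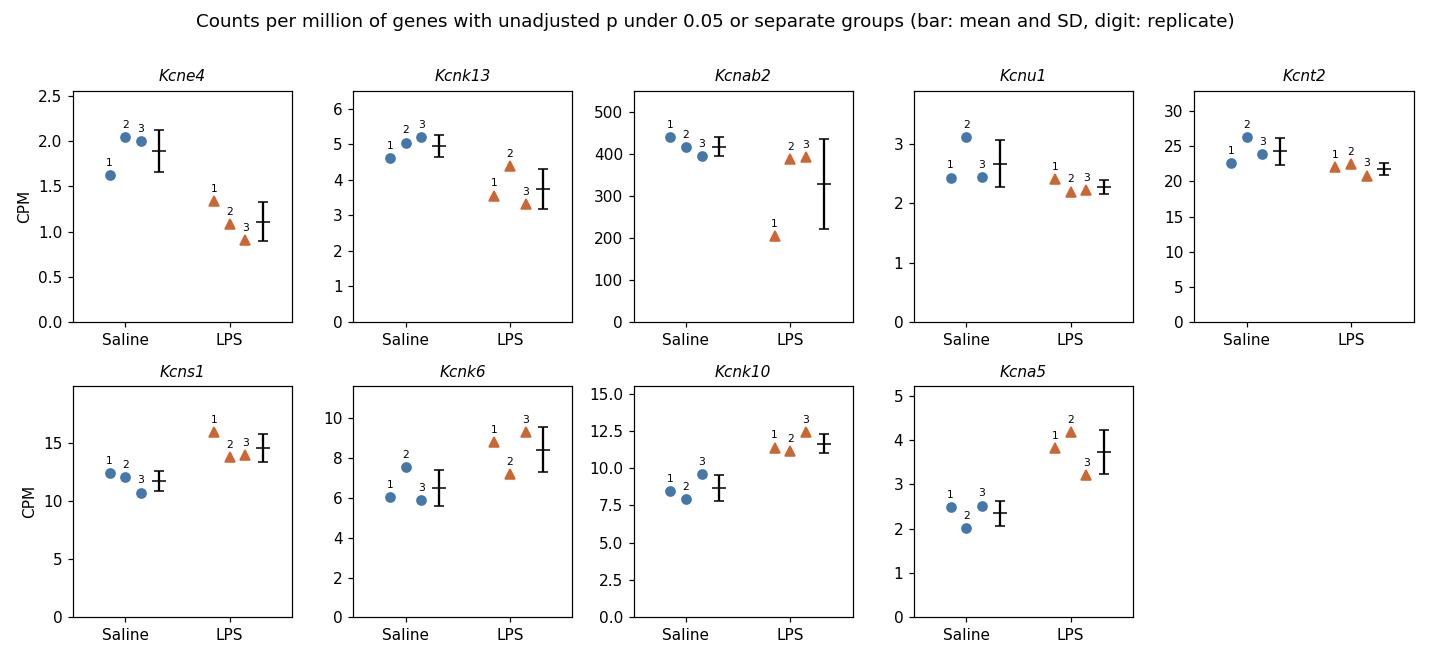
CPM of 9 genes with an unadjusted p under 0.05 or with groups that do not overlap, with 1 point per library, the replicate number above it, and the mean and SD beside each group. Kcna5, Kcnk10 and Kcns1 have every LPS point above the saline points, Kcnk6 overlaps, and the other 5 have every LPS point below, with LPS 1 far apart in Kcnab2.

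A few members varied more within a group than between groups. In 4 members, Kcna2, Kcnq5, Kcnd3 and Kcng4, the highest CPM of a group was over 2 times its lowest. That is 5.63% of the members, against 6.57% of all rows. The median coefficient of variation of the members was 7.13% in saline and 8.89% in LPS libraries.

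Kcna2, an axonal Shaker-type subunit (chr3:107101146-107115005), was low in 1 library of each group. It had 2161, 11945 and 9400 counts in the saline and 2663, 9109 and 9357 in the LPS libraries. Saline 1 and LPS 1 therefore lay at 56.6 and 63.5 CPM, while the other 4 libraries lay between 225 and 298 CPM. Over all rows, 78 had an over 3-fold range within both groups, and Kcna2 was the only member among them. The fitted log2 change was -0.14 with an SE of 0.872 and a 95% interval from -2.52 to 2.23. Its neighbours Kcna3 (log2 0.05, SE 0.161) and Kcnc4 on chromosome 3 did not show this step, with Kcnc4 between 118 and 132 CPM in all 6 libraries.

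Kcnq5, a further M-current subunit, was low in Saline 3. It had 6305, 6315 and 1594 counts in the saline and 5283, 4470 and 4602 in the LPS libraries. With all libraries the log2 change was -0.01 (SE 0.573). Without Saline 3 it was -0.42 (edgeR adjusted p = 0.0849), so 1 library decides the value. Kcnd3, an A-type subunit, was high in Saline 1 and LPS 2, at 25.7 and 29.3 CPM, against 13.7 to 16.8 CPM in the other libraries. Kcng4 ran from 3.23 to 6.57 CPM in saline.

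Kcnab2, the beta subunit that brings Kv1 channels to the axon and the most abundant member (chr4:152390742-152477871), depended on LPS 1 and on the unit. It had 440, 415 and 394 CPM in the saline and 205, 387 and 393 CPM in the LPS libraries. The groups were separate, but LPS 2 and LPS 3 lay just below Saline 3. The log2 change was -0.34 (SE 0.284, edgeR adjusted p = 0.838), and -0.10 without LPS 1. In FPKM the LPS libraries lay at 85.0, 152 and 105 against 119, 102 and 121 in saline, and the groups overlapped. The ratio of FPKM to counts for Kcnab2 was 46.4% and 44.8% above the median gene in LPS 1 and LPS 2. Kcnab1, its relative, had no such step, with 67.7 ± 3.17 CPM after saline and 71.1 ± 5.51 CPM after LPS (SD, n = 3 each). The cause of these steps was not tested.

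**Figure D4:**
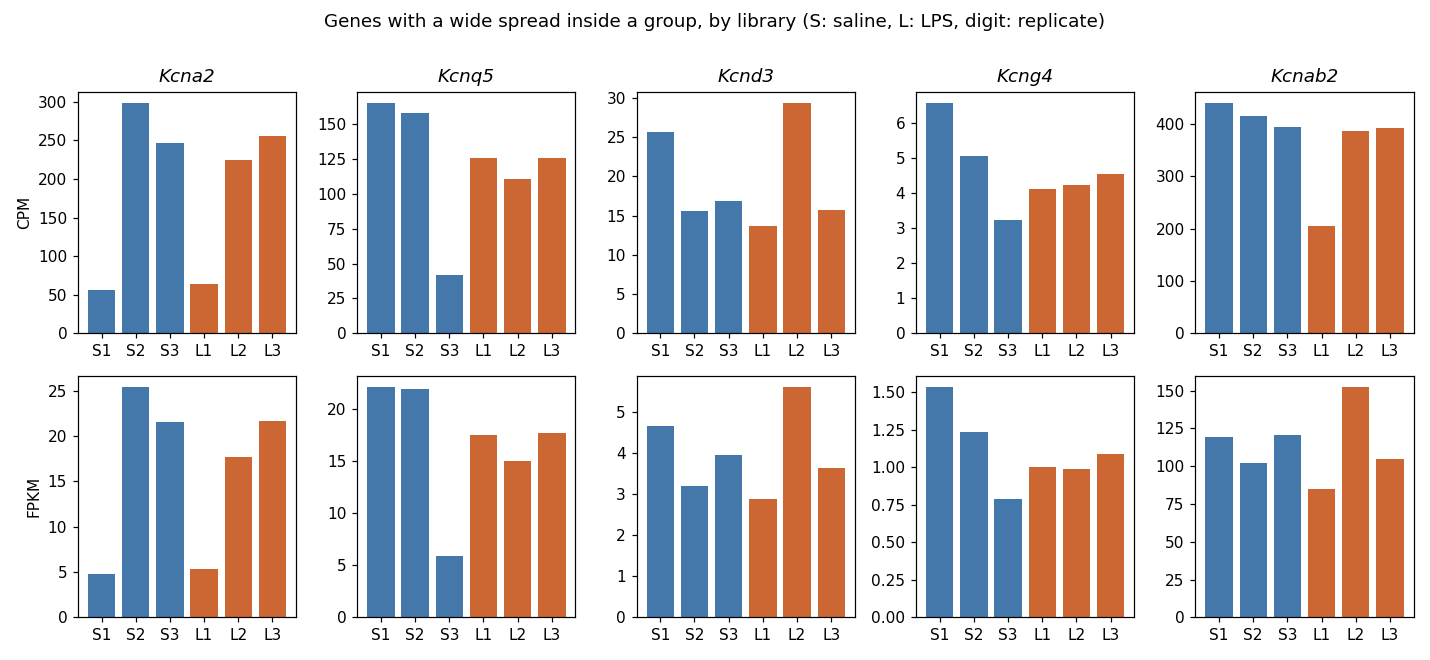
CPM (top) and FPKM (bottom) in each library for Kcna2, Kcnq5, Kcnd3, Kcng4 and Kcnab2, with saline bars first and LPS bars after them. Kcna2 is low in Saline 1 and LPS 1, Kcnq5 is low in Saline 3, and Kcnab2 is low in LPS 1 by CPM and high in LPS 2 by FPKM.

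Genes whose products bind, traffic or work beside potassium channels were counted from a list of 55, all of them measured. By edgeR, 1 was called lower in LPS samples and 0 were called higher, where 0.189% of all rows were called lower and 0.0982% higher. The list was chosen with earlier results of these data known, so this count is a description. At an unadjusted edgeR p under 0.05 there were 4 (7.27%, against 7.17% of all rows), a share near the background. The called gene was Cntnap2, which clusters Kv1 channels beside the node of myelinated axons. It had 94.6, 95.8 and 97.5 CPM after saline and 56.4, 60.7 and 51.7 CPM after LPS, with no overlap. In edgeR it fell by 0.77 on the log2 scale (SE 0.0675), with an adjusted p of 0.00105. The Kv1 subunits that it clusters, Kcna1, Kcna2 and Kcnab2, are described above and did not pass. Dpp10, an auxiliary subunit of the Kcnd channels, was lower in each LPS library without passing (log2 -0.19, SE 0.0560, edgeR adjusted p = 0.446). Hcn3, a pacemaker channel gene, was higher in each (0.25, SE 0.0761, adjusted p = 0.461), as was the Kcnd partner Kcnip3 (0.16, SE 0.0676, adjusted p = 0.694). The median of the 55 was -0.03.

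Immediate early genes, which neurons induce with activity, are given beside the channels because they differed in the same libraries. Of 12 listed, 12 had values below 0 and 3 were called lower by edgeR (Nr4a1, Sik1 and Dusp1), where 0.189% of all rows were called lower. The groups of Egr1 and Npas4 overlapped. DESeq2 called 10 of the 12 and limma on FPKM 6, with no share over all rows worked out for either. The edgeR count was 1 without LPS 1 (Sik1), 5 without LPS 2, 2 without Saline 1 or without Saline 2, and 3 without LPS 3 or without Saline 3. Their summed level was 1928 to 2713 CPM with saline, against 1008 to 1481 CPM with LPS. It was led by Egr1 and Arc (means of 713 and 645 CPM after saline), neither of which edgeR called. The part of the early genes in the channel values was not tested. Many early gene promoters hold the cyclic AMP response element, to which CREB binds, and the channel promoters were searched for the same letters. RefSeq promoter sequences (GRCm38.p6, 250 bases before to 50 after a start site) were found for 48 of the 71 members, 66 sequences in all. The full element TGACGTCA was in 0 of the 66, against 1.79% of 32851 promoters of the same length. The shorter site TGACGT, which is contained in the full element and was searched on both strands, was in 3 of the 66 (4.55%), against 7.51% of all. The genes were Kcnab2, Kcna6 and Kcnj6. The stretch of Kcna6 is printed to show such a match at a start site, with the match in capitals, read 5′ to 3′ on the gene's strand.
Kcna6: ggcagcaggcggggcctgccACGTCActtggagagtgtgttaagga
This stretch is chr6:126740656-126740701 on the minus strand, and the match begins at position -7 from the start site. The Kcna6 and Kcnj6 groups overlapped, and those of Kcnab2 were separate in CPM and not in FPKM. A match describes the letters of this window and says nothing of binding.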

How the data were processed

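Polyadenylated RNA of 6 ACC samples was sequenced, 3 from LPS and 3 from saline mice. The authors deposited raw read counts per gene and, beside them, FPKM values per library, per the file headers. TopHat2 2.1, DESeq 1.10.1 and GRCm38 are named in the submitters' processing notes, without their roles, the counting program, strand use or filters. The smallest row total was 185 counts, and 688 rows named newGene have no position. FPKM and counts did not keep 1 ratio: 20 of 355 member and library pairs departed by over 10%, in 10 members.

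For the test, edgeR 4.0.16 was run on the counts under R 4.3.3 (robust quasi-likelihood, TMM factors, filterByExpr, which removed 0 rows). The model held treatment alone, with Benjamini-Hochberg adjustment over all 14250 rows. CPM values use the TMM factors. The 95% intervals come from the SE and the fit's degrees of freedom. Alternatives were DESeq2 1.42.0, limma 3.58.1 (voom, and log2(FPKM + 1)), RLE and upper-quartile factors, other filters, the replicate number as a block, and each library left out. FPKM changes are on the log2(FPKM + 1) scale, which understates changes of low genes. The edgeR step was run on simulated counts with 2-fold changes in either direction, set in genes that were not members. No steps between libraries of a group and no smaller changes were simulated, so this run does not cover genes such as Kcna2. No libraries were near-duplicates (chi-square per degree of freedom at least 32.1).

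The members and all lists were chosen with earlier results of these data known. Genes given with values are those called, up to 8 per direction with separate groups, the most abundant of each subfamily, a fixed panel, the 3 with the widest spread, and partner genes called or among the 3 with the smallest p. Kcnk6, Kcng4, Kcnab1, Kcnmb1, Kcnmb2, Kcna3, Kcnq1, Kcnh7, Kcnk4, Kcnip3, Abcc9 and the marker genes given with values fall outside this rule and were named after their values were seen. Some members enter the counts, medians and class sums but are not reported here by name.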

Additional observations from a re-analysis of the deposited data

How the results depend on the processing

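The count of potassium channel members called was 0 in each direction under all 14 alternatives, and Cntnap2 was the 1 partner gene called lower in each. Over the whole table DESeq2 called 60 genes higher and 80 lower, where edgeR called 14 and 27. With limma on FPKM, 7 were called higher. Those it called lower included 6 of the 12 early genes, and their full count is not given here. The cause of the differing counts was not tested. With any single library omitted, edgeR called 14 to 20 genes higher and 22 to 35 lower. It found 5 to 10 members at an unadjusted p under 0.05, and the share over all rows was not counted for those fits. The median of the members stayed between -0.06 and 0.00 in those fits. With the replicate block, edgeR called 0 members, 10 genes higher and 21 lower. Same-numbered libraries did not deviate together over all genes (correlations of -0.03, 0.03 and 0.04). Kcna2, though, was low in both Saline 1 and LPS 1, and with the replicate block its SE was 0.121, against 0.872 without. Such a correlation cannot show what same-numbered libraries share, the labels do not give it, and it was not tested. Of the 42 members named by rule, 23 kept their sign under every alternative. The widest ranges with a sign change were those of Kcna2 (-0.59 to 0.26), Kcnq5 (-0.42 to 0.28) and Kcnd3 (-0.40 to 0.27), and no named member was called under any alternative. With 3 mice per group, 21 members had 95% intervals that reached beyond 1.5-fold, among them Kcne4 and Kcna5.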
